A study of Mus musculus with 9 samples.

Results

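Gata2, Tal1, Lmo2, Lyl1, Erg and Fli1 encode 6 transcriptional regulators of blood stem cells, and the accessible chromatin around them was compared between cell types and genotypes. Members were taken from the known set of stem cell factors called the heptad. For each gene, every merged peak region inside the annotated gene or within 100 kb of its ends was used, which gave 233 of the 117465 regions of the series. Of these, 201 recurred in at least 2 libraries and were analysed, against 95786 such regions in all, and 32 were seen in a single library.

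The assay was ATAC-seq, which reads where the enzyme Tn5 can cut DNA. It was run on 2 cell types sorted from bone marrow, the long-term stem cells of the blood (LT-HSCs) and the multipotent progenitors (MPPs) that descend from them. All groups were C57BL/6 mice, either wild type (WT) or lacking the nuclear receptors RXRα and RXRβ (KO, labelled RXRa/RXRb-KO). LT-HSCs gave 3 KO libraries (numbered 1, 2 and 4) and 2 WT libraries (numbered 2 and 3), and MPPs gave 2 libraries of each genotype (numbered 1 and 2). Animals were pooled before sorting, and the labels do not say that libraries of a group came from separate pools, so the spread behind each p-value may be technical. The Cre line, the deleted segments, the age and the sex of the mice were not used here, so the peaks do not check the genotype labels.

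The 6 proteins act together. Tal1 and Lyl1 are related basic helix-loop-helix factors that bind E-box motifs with an E-protein partner, Lmo2 is a LIM-domain bridge that binds no DNA itself, Gata2 is a zinc finger factor that binds GATA motifs, and Erg and Fli1 are related ETS factors. In stem and progenitor cells they occupy many of the same enhancers, including enhancers of their own genes, and most of the genes are controlled by elements far from their start sites.

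The upstream sequences of 4 start sites that lie inside accessible regions are shown because the presence of a peak there differed between genes. RefSeq's promoter table for GRCm38.p6 (the assembly behind mm10) matched 4 of the 6 genes. It held 2 starts for Gata2, 2 for Tal1, 1 for Lyl1 and 3 for Erg. Each line gives the bases before the start, 5′ to 3′ on the gene's strand. Capitals mark matches, on either strand, to a GATA motif (AGATAA), an E-box (CAGNTG) or an ETS core (GGAAG). The Gata2 windows are chr6:88193641-88193890 and chr6:88198414-88198663 (plus strand), the Lyl1 window chr8:84701207-84701422 (plus, stopping at the annotated gene edge) and the Erg window chr16:95459349-95459598 (minus, the third start).
Gata2, the first start: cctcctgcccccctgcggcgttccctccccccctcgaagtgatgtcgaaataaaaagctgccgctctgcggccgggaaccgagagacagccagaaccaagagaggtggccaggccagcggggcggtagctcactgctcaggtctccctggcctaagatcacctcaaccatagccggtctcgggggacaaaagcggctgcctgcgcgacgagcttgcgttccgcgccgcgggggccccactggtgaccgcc
Gata2, the second start: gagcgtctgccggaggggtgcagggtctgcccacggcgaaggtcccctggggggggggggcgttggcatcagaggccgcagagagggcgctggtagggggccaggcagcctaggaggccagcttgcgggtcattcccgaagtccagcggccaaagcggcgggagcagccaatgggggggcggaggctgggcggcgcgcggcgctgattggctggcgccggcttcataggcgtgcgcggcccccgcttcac
Lyl1: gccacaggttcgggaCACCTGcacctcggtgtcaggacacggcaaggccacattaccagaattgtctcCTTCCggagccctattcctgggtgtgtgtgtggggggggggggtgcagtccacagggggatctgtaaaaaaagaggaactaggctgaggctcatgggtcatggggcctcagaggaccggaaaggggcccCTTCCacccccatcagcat
Erg, the third start: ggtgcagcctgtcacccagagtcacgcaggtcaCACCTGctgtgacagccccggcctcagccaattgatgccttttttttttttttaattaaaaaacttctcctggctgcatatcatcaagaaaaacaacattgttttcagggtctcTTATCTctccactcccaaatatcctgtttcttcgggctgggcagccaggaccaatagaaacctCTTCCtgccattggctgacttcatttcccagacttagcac
Both Gata2 windows held 0 matches to any of the 3 motifs. The Lyl1 window held 1 E-box and 2 ETS cores, and the Erg window 1 match to each of the 3 motifs. Among 32851 RefSeq windows of 250 bp, 9.99% held the GATA motif, 44.8% the E-box and 64.1% the ETS core, so the E-box and ETS matches are common letters in such windows. A match is not evidence of binding.

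Lists of the LT-HSC libraries held 22690 to 71586 peaks and those of the MPP libraries 78189 to 86353, and the read depth behind each list is unknown. As a check of the sorted cells, the number of marker genes with a region within 1 kb of a gene end was counted. Of 8 LT-HSC markers, LT-HSC libraries had 2 to 7 and MPP libraries 7 to 8 (Slamf1 had 0 in LT-HSC and 3 in MPP libraries). Of 5 MPP markers the ranges were 3 to 5 and 5 to 5. Of 4 markers each, the ranges in LT-HSC and MPP libraries were 0 to 1 and 2 to 3 for T cells, 1 to 2 and 3 to 3 for B cells, 0 to 2 and 3 to 3 for mature myeloid cells, 2 to 4 and 3 to 3 for erythroid cells, and 1 to 3 and 1 to 2 for endothelial cells. Cd3g, Pax5, Ly6g and Cdh5 were at 0 in all 9 libraries. A peak near a gene end in progenitors does not show that the gene was expressed.

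The 201 regions were spread unevenly. Only 8 lay at an end of their own gene (within 1 kb), 56 elsewhere in the gene body, 83 at lower coordinates and 54 at higher coordinates. Erg, a gene of 227 kb, had 41 regions, and Fli1, of 121 kb, had 40, with 24 and 21 of them in the gene body. Lyl1, of 3.29 kb, had 34, but 26 of these overlapped another gene of this dense stretch of chromosome 8. Lmo2 had 35, Gata2 30 and Tal1 21. Regions held by all 9 libraries numbered 33 of 201 (16.4%), against 14.5% of all regions, and were 11 at Lyl1, 7 at Tal1, 5 at Gata2, 5 at Fli1, 3 at Lmo2 and 2 at Erg.

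**Figure D1:**
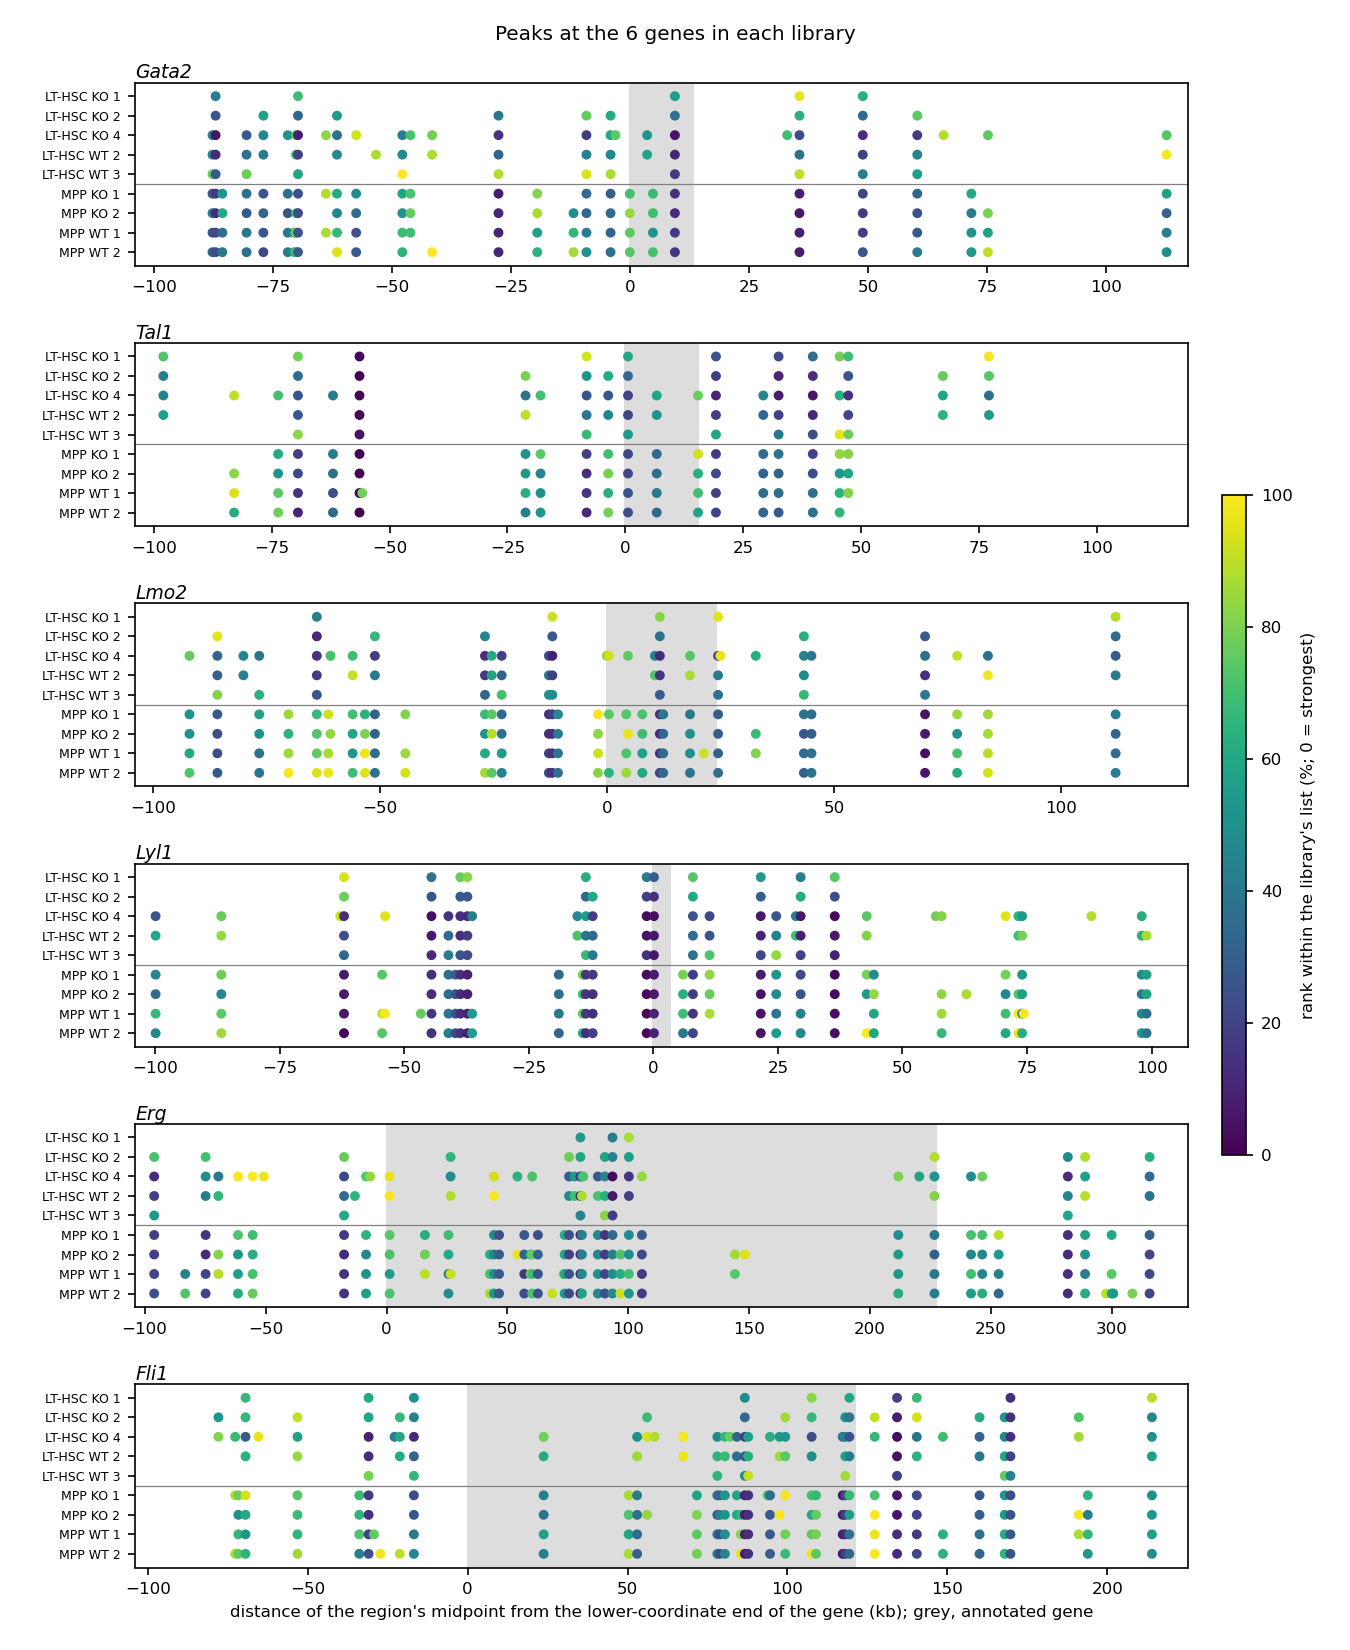
Each dot is a merged region with a peak in that library, placed by the distance of its midpoint from the gene's lower-coordinate end (x axis, kb) and coloured by its rank within that library's list (0%, strongest). Rows are the 9 libraries, the grey band is the annotated gene, and the MPP rows below the line hold more regions on average at each gene, while at Tal1 LT-HSC KO 4 holds all 21; the dark column 56.4 kb below Tal1 is the region shared with the Stil gene end.

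The first comparison asked at which regions LT-HSCs and MPPs differed in the presence of a peak. MPP libraries held more of the regions at each of the 6 genes on average, but so they did over the whole genome. The share of the 201 regions held was 45.8 ± 23% in LT-HSC libraries (SD, n = 5) and 85.2 ± 3.3% in MPP libraries (SD, n = 4), a difference of −39.4 percentage points, against 40.5 ± 18% and 81.5 ± 3.0% over all 95786 regions, a difference of −41.0. Among LT-HSC libraries the share was 22.4% in KO 1, 38.8% in KO 2, 78.1% in KO 4, 58.7% in WT 2 and 30.8% in WT 3. Among MPP libraries it was 80.6% in KO 1, 86.1% in KO 2, 88.6% in WT 1 and 85.6% in WT 2. Every MPP library was above every LT-HSC library, and the order of the LT-HSC libraries was that of their list lengths. When each list was cut to its 22690 strongest peaks the difference over the members was 1.33 points in the other direction, so the shares do not show a difference apart from list length. Fewer cells with an accessible site and less access per cell cannot be told apart in bulk samples.

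Tal1 and Erg were the extremes. LT-HSC libraries held 65.7 ± 22% of Tal1 regions and 33.7 ± 25% of Erg regions (SD, n = 5), while MPP libraries held 83.3 ± 2.7% and 86.0 ± 8.5% (SD, n = 4). At Tal1 the LT-HSC shares were 52.4, 61.9 and 100% in KO 1, 2 and 4 and 71.4 and 42.9% in WT 2 and 3, with KO 4 above and the others below the MPP range of 81.0 to 85.7%. At Erg they were 7.32, 31.7 and 68.3% in KO and 46.3 and 14.6% in WT, all below the MPP range of 75.6 to 95.1%. The other genes lay between, with LT-HSC means of 52.4% at Lyl1, 47.5% at Fli1, 46.0% at Gata2 and 39.4% at Lmo2. Their SDs over the LT-HSC libraries were 21 to 24 points. The same libraries gave the mean of every gene, so these SDs do not measure the error of the order. Gata2 was above Lmo2 in each LT-HSC library. The orders of Lyl1 and Fli1, and of Fli1 and Gata2, changed between libraries. The order was not tested.

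**Figure D2:**
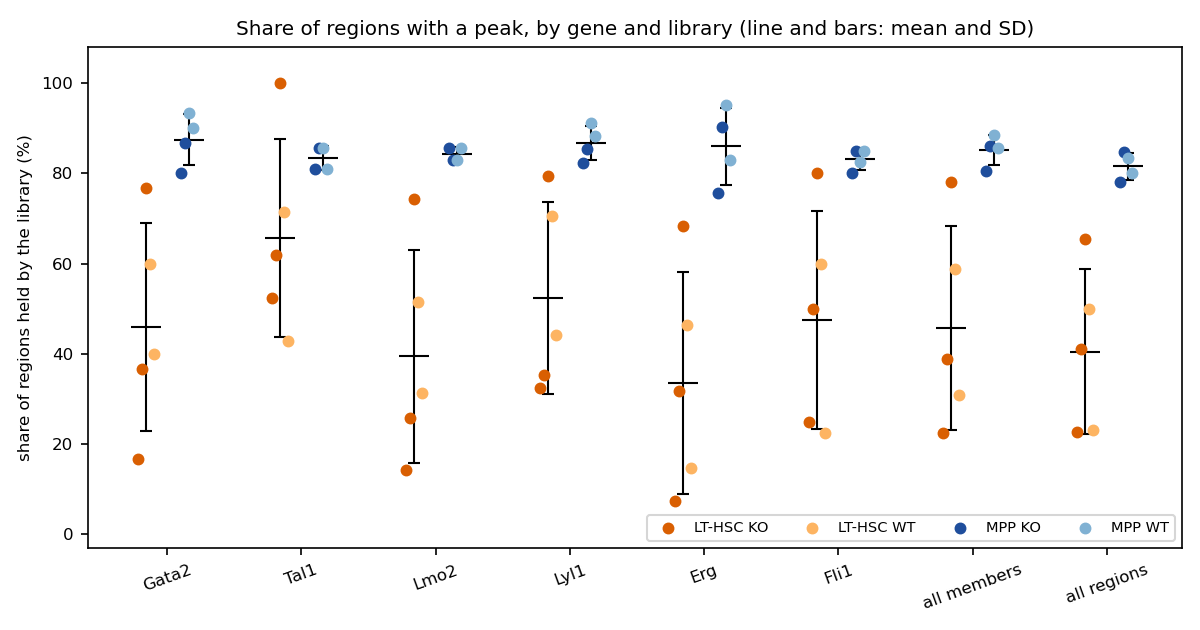
Dots give the share of a gene's regions with a peak in each library (y axis, %), and the line and bars the mean and SD over 5 LT-HSC or 4 MPP libraries. MPP libraries sit between 75.6 and 95.1% at every gene, and LT-HSC libraries spread from 7.32% at Erg to 100% at Tal1.

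By Fisher's exact test (two-sided, 5 against 4 libraries, smallest possible p 0.00794) with Benjamini-Hochberg adjustment over 52020 regions, 29 of 106 testable member regions (27.4%) were held more in MPPs, against 31.9% of all regions tested, and 0 were held more in LT-HSCs, against 0.442%. Each of the 29 was held by all 4 MPP and no LT-HSC library. The reverse, a peak in all 5 LT-HSC libraries and in no MPP library, was seen at 0 of the 201 member regions, against 0.24% of all regions. They were 7 regions at Fli1, 6 at Erg, 6 at Lmo2, 5 at Gata2, 5 at Lyl1 and 0 of the 10 testable at Tal1. The member share is near the background and is no result about these genes. The marker counts above also ran higher in MPP libraries for T cells, B cells and mature myeloid cells, and likewise for the LT-HSC and MPP marker lists. The part of these markers in the counts of regions was not tested. In lists of equal length 33 member regions could be tested, and 2 were held more in MPPs (21.1% of all regions) and 4 more in LT-HSCs (10.9% of all regions).

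Gata2 showed the separation at its own starts. The region over the first start, chr6:88193482-88194135, was held by all 4 MPP libraries, at 70.0% (KO 1), 84.7% (KO 2), 75.0% (WT 1) and 74.2% (WT 2) of the way down their lists, and by no LT-HSC library. The region over the second start, chr6:88198516-88198814, was likewise held by 4 MPP libraries, at 67.6, 69.2, 51.9 and 70.5% in the same order, and by no LT-HSC library. LT-HSC KO 4, with 71586 peaks the longest LT-HSC list, held neither. The MPP peaks in these 2 regions stood at places 44350 to 73168 of their lists. The other LT-HSC lists held only 22690 to 50023 peaks in all. In lists cut to 22690 peaks no MPP library would hold either region. The part of list length here was not tested. The windows printed for these starts lie inside the regions over 250 and 148 of their 250 bases. The most strongly ranked Gata2 region in the gene body, chr6:88202925-88203622, 9.38 kb after the first start, was held by all 9 libraries. It is at the position of the intronic enhancer known to be needed for Gata2 expression in emerging stem cells. Its list rank, the rank of its −log10 q-value as a percentage of the list with 0% the strongest, was 55.1, 37.5 and 5.85% in LT-HSC KO 1, 2 and 4, 9.82 and 16% in LT-HSC WT 2 and 3, and 13.7, 12.1, 16.8 and 15.4% in the MPP libraries.

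The other gene starts behaved differently. The Lyl1 start region, chr8:84701188-84701925, was held by all 9 libraries, at list ranks of 28.2, 14.2, 3.29, 6.37 and 5.48% in the LT-HSC libraries and 7.15 to 9.62% in the MPP libraries, and it covers the whole printed window. At Tal1, chr4:115056444-115057532 was also held by all 9, but it lies between the 2 Tal1 starts and covers neither, and the windows before both starts met no region. The region over the third start of Erg, chr16:95459010-95459783, was held by 4 libraries of each cell type and covers the printed Erg window, whereas the windows of the other 2 Erg starts met no region. At the upper end of Erg, chr16:95585461-95586054 was held by 3 LT-HSC libraries and 4 MPP libraries, and at its lower end chr16:95360039-95360877 by 2 and 4. At Lmo2, chr2:103958129-103958479 at the lower end had peaks in 1 LT-HSC library and 2 MPP libraries, and chr2:103982132-103982575 at the upper end in 4 and 4. At the upper end of Tal1, chr4:115071705-115071986 was held by 1 and 4. No Fli1 region lay within 1 kb of an end of that gene.

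The other regions held by all 4 MPP and no LT-HSC library lay more than 1 kb from the ends of their own gene, and up to 3 per gene are named. At Erg, chr16:95405503-95405923, chr16:95415884-95416401 and chr16:95421450-95422105 lie 165 to 181 kb into this long gene, and their MPP list ranks were 16.5 to 31.7%. These were stronger than the separated Gata2 start regions. At Fli1 the separated regions chosen by rank were chr9:32500857-32501228 in the gene body (22.8 to 43.6%), chr9:32615905-32616299 (42.2 to 66.5%) and chr9:32388192-32388457 inside Kcnj1 (43.6 to 72.3%). At Lmo2 they were chr2:103969984-103970570 (32.6 to 39.5%), chr2:103946935-103947240 (35.6 to 46.4%) and chr2:103965523-103965811 (56.8 to 71.7%). At Lyl1 they were chr8:84661557-84661889 at the end of Ier2 (23.7 to 31.2%), chr8:84682244-84682688 in Nacc1 (33.1 to 40.8%) and chr8:84745410-84745947 in Nfix (47.7 to 83.9%), so that all 3 may belong to other genes. At Gata2, chr6:88108018-88108453 (35.0 to 59.9%) and chr6:88265356-88265717 in Eefsec (41.2 to 60.4%) were named by this rule. The fifth at Gata2, chr6:88174203-88174533 (56.3 to 87.2%), fell outside it and is given to account for that gene.

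Tal1 had the opposite pattern at 3 regions. These were noticed after the values were seen. Of the regions at Tal1, 3 of 21 (14.3%) were held by 3 or more LT-HSC libraries and no MPP library, against 2.87% of all regions, and no other member had such a region. The region chr4:114958211-114958667, 98.0 kb before the first Tal1 start, was held by LT-HSC KO 1, 2 and 4 and WT 2 at list ranks of 72.1, 42, 43.4 and 56.8%. The region chr4:115133091-115134000, at the end of the neighbouring gene Cyp4x1, was held by the same 4 libraries at 98.7, 73.6, 36.3 and 54.7%. The third of them, chr4:115123375-115124155 inside Cyp4x1, was held by LT-HSC KO 2, KO 4 and WT 2. LT-HSC WT 3, whose list is among the shortest, held none of them. The adjusted p of the first and second was 0.0786 (Fisher's exact test) and so missed the threshold.

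Among regions that all 9 libraries held, the strength of the peaks could be compared. Ranks were taken within the 13908 common regions (common rank, 0% strongest), turned into normal scores and tested with limma, with Benjamini-Hochberg adjustment over all 13908. Of the 33 member regions, 9 (27.3%) ranked higher in LT-HSCs, against 15.3% of all, and 4 (12.1%) ranked higher in MPPs, against 14.9%. The 9 were 3 at Lyl1, 2 at Tal1, 2 at Fli1, 1 at Lmo2 and 1 at Erg. The median LT-HSC minus MPP difference was 0.07 over the 33 and −0.05 over all regions. In 7 of 33 (21.2%) every LT-HSC library ranked above every MPP library, against 15% of all, and in 5 of 33 (15.2%) the reverse, against 16.1%. By an exact permutation test over the 126 labellings, 0 regions passed after adjustment, and the smallest adjusted p of any region was 0.0637. Erythroid markers were at 2 to 4 of 4 genes in LT-HSC and 3 of 4 in MPP libraries. Among the 4 endothelial markers, Emcn counted 3 LT-HSC against 0 MPP lists, and Tek 4 against 1. Pecam1 counted 5 against 4, so every list, and Cdh5 0 against 0. The part of the erythroid and endothelial markers in the rank differences was not tested.

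**Figure D3:**
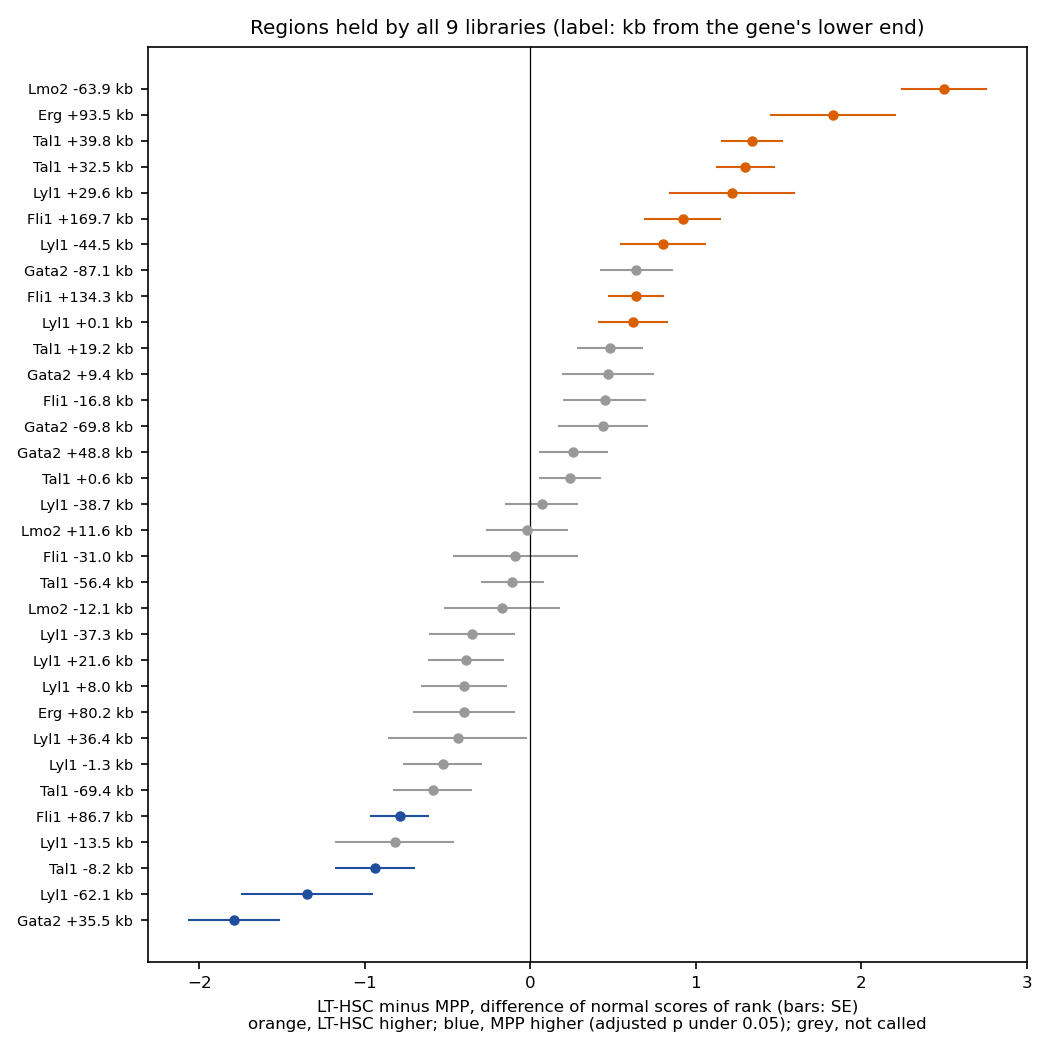
Points are the LT-HSC minus MPP differences of normal scores of rank at the 33 member regions held by all 9 libraries (x axis), with SE bars, labelled by gene and by the distance of the region's midpoint from the gene's lower-coordinate end. Orange marks the 9 regions that ranked higher in LT-HSCs, led by Lmo2 at 2.50, blue the 4 that ranked higher in MPPs, led by Gata2 at −1.79, and grey those that were not called.

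The largest difference was at Lmo2. The region chr2:103893726-103894192 lies 63.7 kb outside the lower end of the gene, in the stretch known for distal Lmo2 enhancers. Its common rank was 57.1, 33.1 and 63.4% in LT-HSC KO 1, 2 and 4 and 55.0 and 41.2% in LT-HSC WT 2 and 3, and 99, 99.6, 98.5 and 99.7% in MPP KO 1, KO 2, WT 1 and WT 2. All 4 MPP libraries were thus near the bottom of the common set, with no overlap. The difference was 2.50 ± 0.26 (SE), adjusted p = 0.000204 (limma). With lists of equal length all 5 LT-HSC libraries and 0 MPP libraries held it. This follows from its list places, 4990 to 10636 in LT-HSC and 52714 to 75757 in MPP libraries, and is no separate result. It was among the 4 of 33 testable member regions held more in LT-HSCs in that setting, against 10.9% of all regions. The Lmo2 region with the best rank away from gene ends, chr2:103969310-103969743 in the gene body, differed by −0.02 ± 0.25 (adjusted p = 0.971).

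At Erg, chr16:95452347-95452895, in the gene body 134 kb from the first start, had common ranks of 56.3, 85.7 and 12.6% in LT-HSC KO 1, 2 and 4 and 21.9 and 28.1% in WT 2 and 3. The MPP values were 89.6, 95.6, 94.6 and 92.9%. All LT-HSC libraries were higher than the MPP libraries, but KO 2 was close to them. The difference was 1.83 ± 0.38, adjusted p = 0.00589. The region of the gene body with the best rank, chr16:95439142-95439574, had an LT-HSC mean common rank of 62.8 ± 21% and an MPP mean of 48.3 ± 3.6% and was not called (adjusted p = 0.353).

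Tal1 had called regions on both sides, in opposite directions. Beyond the gene, chr4:115095495-115096864, 39.8 kb after the first start, lies where a downstream erythroid enhancer of Tal1 is known. Its common ranks were 49.4, 36.2 and 29.6% in LT-HSC KO and 37.4 and 37.3% in LT-HSC WT, against 74.6, 83.8, 89.6 and 88.9% in the MPP libraries. The groups did not overlap, with a difference of 1.34 ± 0.19 (adjusted p = 0.000885), but by the rank of fold enrichment it was 0.60 and not called (adjusted p = 0.0761). Nearby, chr4:115088614-115089232, at the end of the membrane protein gene Pdzk1ip1, ranked at 33.3, 30.7, 38.3, 61.0 and 59.2% in the LT-HSC libraries and 82.8 to 92.4% in the MPP libraries, a difference of 1.3 ± 0.18 (adjusted p = 0.00081). Between these and the gene, chr4:115075303-115075973, 19.2 kb after the first start, where a stem cell enhancer of Tal1 is known, had a difference of 0.48 ± 0.20 that was not called (adjusted p = 0.0964). Before the gene, chr4:115047762-115048650 ranked higher in MPPs, at 53.5 to 70.8%, than in LT-HSCs, at 83.5 to 97.1%, a difference of −0.94 ± 0.24 (adjusted p = 0.0146).

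The strongest region of any member sits near Tal1 but at another gene. It is chr4:114999745-115000331, at the end of Stil, a centriole gene, with list ranks of 0.397 to 4.69% in LT-HSC and 0.312 to 0.738% in MPP libraries and a difference of −0.11 ± 0.19 (adjusted p = 0.702).

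Gata2 had the clearest MPP-high region. At chr6:88229168-88229705, 22.1 kb beyond the upper end, common ranks were 98.3, 95.5 and 81.9% in LT-HSC KO 1, 2 and 4, 89.4 and 96.5% in LT-HSC WT 2 and 3, and 39.7, 34.3, 46.9 and 41.1% in the MPP libraries. The groups were far apart, with a difference of −1.79 ± 0.28 (adjusted p = 0.00126). The intronic region 9.38 kb after the start had a difference of 0.47 ± 0.28 and was not called (adjusted p = 0.222), with LT-HSC ranks from 25.9 to 80.6% that surrounded the MPP values of 60 to 68.7%. The distal region chr6:88106483-88107157, 86.7 kb below the gene, had an LT-HSC mean of 46.4 ± 15% and an MPP mean of 69.7 ± 8.2% (difference 0.64 ± 0.22, adjusted p = 0.052).

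Lyl1 and Fli1 had smaller called differences. The Lyl1 start region had common ranks of 40.8, 40.0, 16.6, 22.7 and 8.92% in LT-HSCs and 40.0 to 49.3% in MPPs, a difference of 0.62 ± 0.21 (adjusted p = 0.0466), with ranges that overlapped. The neighbouring region of best rank, chr8:84699826-84700354 at the end of the tRNA methyltransferase gene Trmt1, lay 1.07 kb from Lyl1 and was not called (−0.53 ± 0.24, adjusted p = 0.125). Further off, chr8:84656676-84657145 (0.80, adjusted p = 0.0421) and chr8:84730717-84731264 inside Nfix (1.22, adjusted p = 0.0341) ranked higher in LT-HSCs, and chr8:84638923-84639801 at the end of Cacna1a (−1.35, adjusted p = 0.0277) in MPPs. At Fli1, chr9:32591707-32592122 (0.92, adjusted p = 0.0136) and chr9:32556164-32556761 (0.64, adjusted p = 0.0205), 48.3 and 12.7 kb above the gene, ranked higher in LT-HSCs, and chr9:32508676-32509066 in the gene body (−0.79, adjusted p = 0.00997) in MPPs. By the rank of fold enrichment the 3 Fli1 differences became 0.60, 0.08 and −0.28, those in Nfix and at Cacna1a 0.72 and −0.68, and none of these 5 was called. The Fli1 region 48.3 kb away had common ranks of 21.1 to 64.4% in LT-HSCs and 79.9 to 85.0% in MPPs. All 7 of these calls at Lyl1 and Fli1, and the Tal1 call before the gene, were lost in at least 1 of the 9 fits that left out a library, whereas the Lmo2, Erg and Gata2 calls and the 2 Tal1 calls beyond the gene were kept in all 9.

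The place of the peak within a shared region also differed between cell types at Tal1 and Fli1. This was noticed after the values were seen and is described without a test. Over regions held by 4 or more LT-HSC and all 4 MPP libraries, the summits of the strongest peaks of the 2 cell types were apart by 100 bp or more in 2 of 56 member regions (3.57%), against 1.1% of 22006 regions. In the region between the Tal1 starts the summits lay 285, 313 and 223 bp after the first start in LT-HSC KO 1, 2 and 4 and 228 and 305 bp in LT-HSC WT 2 and 3. In MPP KO 1, KO 2, WT 1 and WT 2 they lay at 570, 578, 587 and 567 bp. The ranges were separated by 254 bp, while the rank of the whole region did not differ beyond its error (0.24 ± 0.19, adjusted p = 0.369). When only summits within 250 bp were joined, the region between the Tal1 starts was split. The part with the LT-HSC summits, chr4:115056444-115057431, then counted 5 LT-HSC and 0 MPP libraries. The MPP summits lie inside these coordinates too, but were joined into another region. The split follows from the gap of 254 bp and is no separate result.

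The Fli1 region chr9:32541258-32541850 lies just inside the upper end of the gene. Its summits lay 1715 to 1795 bp below that end in the 4 LT-HSC libraries that held it and 2012 to 2030 bp below it in the 4 MPP libraries, 217 bp apart. LT-HSC WT 3 had no peak there. At Tal1 the KO and WT libraries of each cell type were interleaved.

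**Figure D4:**
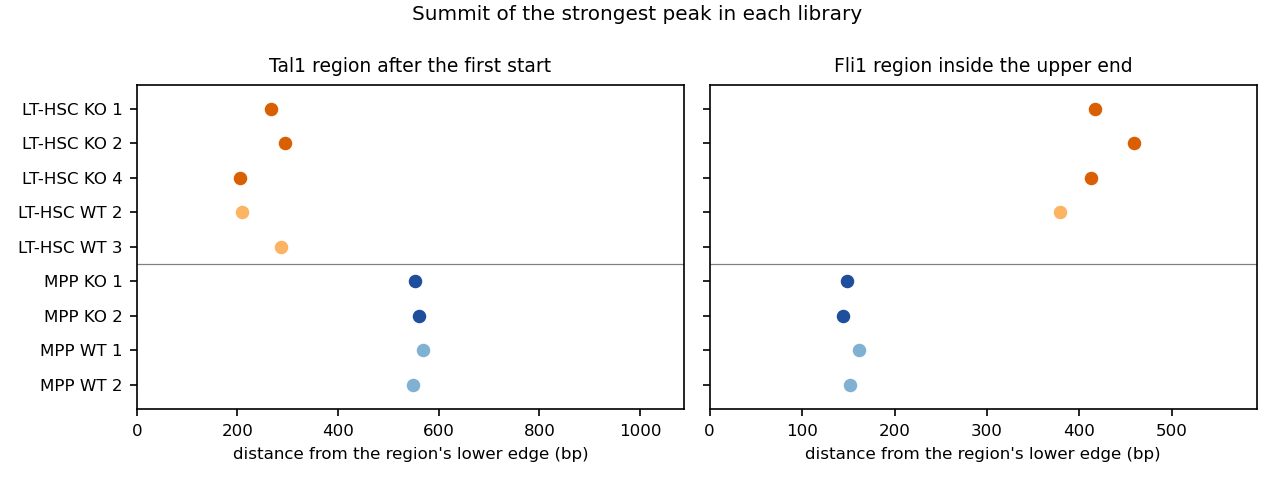
Dots mark the summit of the strongest peak of each library, as a distance in bp from the lower-coordinate edge of the region between the Tal1 starts (left) and of the Fli1 region inside the gene's upper end (right). LT-HSC summits (orange) sit at 205 to 295 bp and MPP summits (blue) at 549 to 569 bp at Tal1, and at 379 to 459 bp and 144 to 162 bp at Fli1.

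The second comparison asked what loss of the RXRs changed at these genes. No member region passed a test over both cell types. Presence could be tested in 3 member regions, and 0 were called by the stratified exact test, against 0% of 1565 regions. Of the 3, 0 reached an unadjusted p under 0.05, against 2.49% of all. This test has at most 60 labellings, which limits its smallest p, so a lack of calls does not measure a lack of effect. For rank averaged over cell types, limma called 0 of 33 member regions and 0% of all 13908, and 0 of the 33 reached an unadjusted p under 0.05, against 11% of all. The interaction of genotype and cell type was called in 0 of 33, against 0%, with 1 at an unadjusted p under 0.05, against 8.35% of all. Within LT-HSCs 0 of 34 were called, against 0% of 14498, and 0 reached an unadjusted p under 0.05, against 13.7%. The exact permutation test of rank called 0 in each, and within LT-HSCs it cannot go below p = 0.1.

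The counts of 0 for rank were not kept under every fit. Without LT-HSC KO 4, the longest LT-HSC list, limma called 6 of 33 member regions for genotype, 10 of 33 for the interaction and 12 of 34 within LT-HSCs. Over all regions it then called 25.2, 27.8 and 31.4%. Of the 34 within LT-HSCs, 11 ranked lower in KO, against 15.5% of all regions, and 1, the Fli1 region 48.3 kb above the gene, ranked higher, against 15.9%. The 11 were 8 neighbouring regions around Lyl1 and 1 each at Gata2, Lmo2 and Erg. With array weights and all 9 libraries kept, limma called 9, 13 and 14 member regions, against 31.7, 33.0 and 38.0% of all. The intronic Gata2 region 9.38 kb after the start shows the pattern. Among the 14498 regions held by all 5 LT-HSC libraries it ranked at 69.4 and 80.4% in KO 1 and 2, at 28% in KO 4 and at 32.9 and 24.8% in WT 2 and 3. Without KO 4 its KO minus WT difference in LT-HSCs was −1.24 ± 0.32 (adjusted p = 0.00739). The Erg region chr16:95452347-95452895 ranked at 55.8 and 85.5% in KO 1 and 2, at 12.1% in KO 4 and at 21 and 27% in WT 2 and 3. At both, KO 4 ranked with the WT libraries and not with the other KO libraries. The lists held 22690 and 43126 peaks in LT-HSC KO 1 and 2, 71586 in KO 4, and 50023 and 22878 in WT 2 and 3. The part of list length was not tested.

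Within MPPs the lists were of like length and 146 member regions were held by all 4 libraries. Ranks among the 64003 such regions of the genome (MPP rank, 0% strongest) were higher in KO at 6 of 146 (4.11%), against 1.9% of all, and lower in KO at 3 (2.05%), against 1.89% (limma with Benjamini-Hochberg adjustment). Both KO libraries ranked above both WT libraries at 48 of 146 (32.9%), against 23.9% of all, and below them at 21 of 146 (14.4%), against 23.2%. With 2 libraries a group an exact permutation test cannot go below p = 0.333, and by the rank of fold enrichment limma called 0 and 0.

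At Fli1, chr9:32556164-32556761, 12.7 kb above the gene, had the smallest p of any member. Its MPP rank was 7.58 and 7.38% in KO 1 and 2 and 16.9 and 14.9% in WT 1 and 2. The groups did not overlap, and the difference was 0.44 ± 0.08, adjusted p = 0.00137. In LT-HSCs its common rank was 28.6, 22.1 and 14.1% in KO and 16.5 and 30.1% in WT, so the genotypes overlapped there. Below the gene, chr9:32405165-32405644 ranked at 27.3 and 36.1% in MPP KO and 54.4 and 57.7% in MPP WT (0.63 ± 0.15, adjusted p = 0.0118). The region inside the upper end, chr9:32541258-32541850, went the other way, at 78.8 and 73.3% in KO and 48.8 and 41.4% in WT (−0.83 ± 0.23, adjusted p = 0.0329). It was outside the rule for naming regions and is given because its summit is described above.

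At the helix-loop-helix genes, the downstream Tal1 region chr4:115095495-115096864 had MPP ranks of 24.1 and 32.3% in KO and 48.7 and 47.0% in WT (0.53 ± 0.13, adjusted p = 0.0159). The same region was ranked higher in LT-HSCs than in MPPs, but both comparisons use the MPP libraries. The Tal1-side region chr4:114986478-114987492, at the end of the nucleotide kinase gene Cmpk1, was lower in KO, at 22.8 and 29.5% against 20 and 13.2% (−0.34 ± 0.10, adjusted p = 0.0467). Near Lyl1, chr8:84730717-84731264 inside Nfix ranked at 26.5 and 35.2% in KO and 57.6 and 58.3% in WT (0.70 ± 0.15, adjusted p = 0.00558). The groups did not overlap at any of the 3.

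At Gata2 the distal region chr6:88106483-88107157 had MPP ranks of 19.1 and 16.3% in KO and 28.7 and 28.2% in WT (0.36 ± 0.10, adjusted p = 0.0252). Its separated neighbour chr6:88108018-88108453 was not called, at 63.0 and 77.8% in KO and 46.4 and 50.2% in WT (adjusted p = 0.14). The intronic region 9.38 kb after the start ranked at 16.7 and 16.4% in KO and 22.4 and 19.4% in WT (0.16 ± 0.09, adjusted p = 0.348). At Erg, chr16:95284059-95284686 inside Kcnj15 ranked at 18.2 and 16.1% in KO and 28.5 and 25.1% in WT (0.33 ± 0.09, adjusted p = 0.0387). The MPP-only region chr16:95612002-95612586, 25.4 kb above the gene, was lower in KO, at 95.9 and 71.3% against 58.4 and 42.1% (−1.14 ± 0.33, adjusted p = 0.0395). Its KO libraries differed more from each other than its groups' nearest values did. Lmo2 had 0 called regions of 25. Its smallest p was at chr2:103944877-103945294, with 16.6 and 18.5% in KO and 24.8 and 24.7% in WT (0.25 ± 0.09, adjusted p = 0.119). Of the 8 named calls, the Fli1 region 12.7 kb above the gene was kept in all 4 fits that left out an MPP library, and each of the others was lost in 1 or more.

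**Figure D5:**
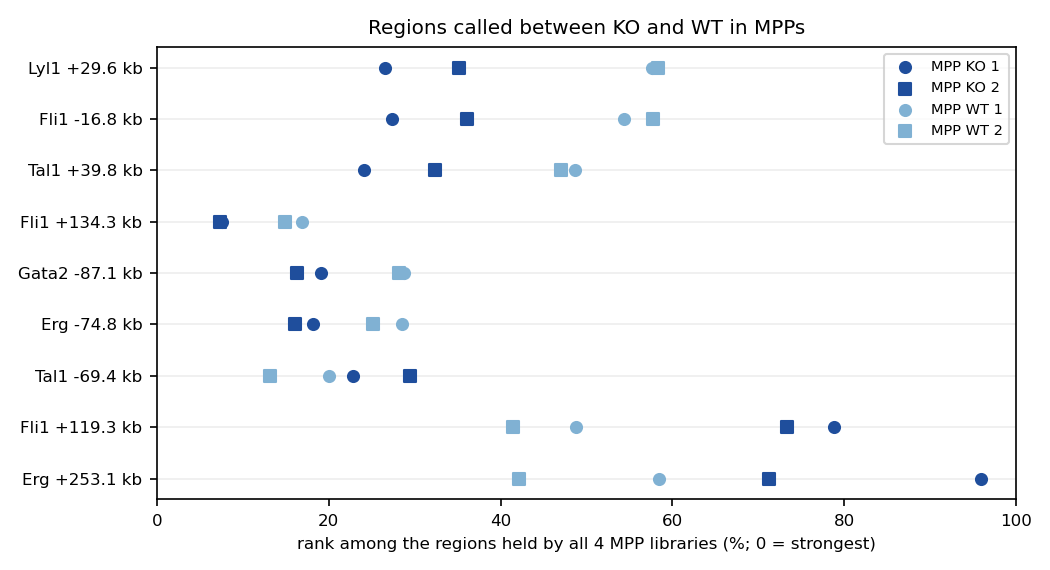
Points give the rank of each MPP library among the 64003 regions held by all 4 MPP libraries (x axis, 0% strongest) at the 9 member regions called between KO (dark) and WT (light); circles are replicate 1 and squares replicate 2, and rows are labelled by gene and distance from its lower-coordinate end. KO lies left of WT, stronger, in the upper 6 rows and right of it in the lower 3.

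Genes that work with the 6 factors were counted in the same way. A list of 24 partner, cofactor and target genes (among them the bridging cofactor Ldb1, the E-proteins Tcf3 and Tcf12, and Zfpm1, which binds GATA factors) had 709 regions. Of these, 116 (16.4%) were held by all 4 MPP and no LT-HSC library, against 17.3% of all regions. Of 112 regions held by all 9 libraries, 12 (10.7%) ranked higher in LT-HSCs, against 15.3% of all, and 15 (13.4%) in MPPs, against 14.9% (limma). The ETS gene Ets1 had 4 such calls, 3 of them higher in LT-HSCs, and Zfpm1 had 3. A partner region that also lies within 100 kb of a member may be counted in both lists. The partner calls may therefore repeat calls already given for the members. In MPPs, 18 of 517 (3.48%) ranked higher in KO, against 1.9% of all, and 8 (1.55%) lower, against 1.89%.

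Genes across the genome were compared with each member by the share of their regions held in each library, less the share over all regions. Pearson's r over the 9 libraries, which share their list lengths, is given as a description. The genes most like Gata2 were Oaz2 (0.968) and Eng (0.964), like Tal1 Cenpu (0.985) and Primpol (0.984), like Lmo2 Ppp2r5b (0.980) and Ehd1 (0.978), like Lyl1 H3f3c (0.974) and Acot6 (0.967), like Erg Gja3 (0.955) and Lect2 (0.953), and like Fli1 Plcl1 (0.936) and Nkx6-3 (0.929). These were the highest of 14769 genes for each member, and of all genes 0.0609% (Fli1) to 1.11% (Lmo2) had an r above 0.9.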

How the data were processed

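One peak list per library was deposited by the authors. Peaks were called with MACS2 2.1.1 on mm10, per the submitters' processing notes; how reads were shifted for Tn5 or filtered is not stated there. Each deposited peak has a fold enrichment, a ratio to background, and the −log10 of the q-value, per the file format. Read counts were not used, so depth is unknown and its precision cannot be given. The 540767 peaks (chromosomes 1 to 19) were merged by 1 bp of overlap into regions, and regions in 2 or more libraries were analysed. In a region with several peaks of a library, the strongest counted. Gene spans came from 20665 protein-coding entries of GRCm38.p6, without exons. Presence was tested by Fisher's exact test (cell type) and an exact test stratified by cell type (genotype), and rank by limma 3.58.1 (R 4.3.3) with a trended variance, all with Benjamini-Hochberg adjustment over all regions and a threshold of 0.05. Python 3.11.15 with scipy 1.17.1 did the rest. The members and lists were chosen with earlier results of these data known. The rule for naming regions takes those at gene ends, the best ranked, up to 3 per gene separated by cell type, up to 2 called per direction, and up to 2 of smallest genotype p; likeness names 2 genes per member among those with 10 or more regions. Tested on simulated data, limma recovered 147 of 200 shifts of 1.5 for cell type (13908 regions), 85 of 200 for genotype in MPPs (64003) and 0 of 200 in LT-HSCs (14498). Alternatives were other thresholds, windows, merging, ranking, tests and left-out libraries. RNA-seq named in the series text was not analysed here.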

Additional observations from a re-analysis of the deposited data

How the results depend on the processing

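Results moved with list length, the ranking measure, the test, the q-value threshold and the joining of summits. They also moved with how libraries were weighted or blocked and with which library was left out. Percentages in brackets are the shares of all regions called in the same fit. In lists of equal length the LT-HSC minus MPP share turned to 1.33 points, and presence calls became 2 for MPPs (21.1%) and 4 for LT-HSCs (10.9%). With summits joined, 1 region was called for LT-HSCs (0.548%). It is the Tal1 region that was split at its summit gap, where MPP libraries also have peaks. The exact permutation test called 0 and 0 regions for cell type rank and 0 and 0 for genotype in MPPs, where its smallest p allows none. Ranking by fold enrichment gave 0 and 0 calls for genotype in MPPs (0.0422 and 0.1%), and a minimum −log10 q of 5 left 1 MPP-high call for cell type rank (14.1%). Array weights gave 11 MPP-high calls for cell type rank (31.2%), 9 for genotype (31.7%), 13 for the interaction (33.0%) and 14 within LT-HSCs (38.0%). Replicate numbers did not pair the libraries. After group means were removed, correlations of same-numbered libraries were −0.0673 to 0.0352. A fit with the replicate block gave 10 MPP-high cell type calls (27.1%), 3 genotype calls (18.8%) and 10 for the interaction (22.7%). It also gave 6 calls lower in KO in MPPs (2.41%). LT-HSC KO 4 and LT-HSC WT 3 are each alone in their replicate number, so they do not inform the contrasts of the blocked fits. No replicate block was fitted within LT-HSCs, whose genotypes share only number 2. Leaving out each library in turn gave 0 to 2 LT-HSC presence calls (2 without LT-HSC WT 3, 4.39%) and 29 to 48 MPP presence calls (48 without LT-HSC KO 4, 89.5%). It gave 4 to 12 LT-HSC-high rank calls (8.74 to 24.7%) and 1 to 9 MPP-high rank calls (6.6 to 27.5%). It gave 0 to 6 calls for genotype, 0 to 10 for the interaction and 0 to 12 within LT-HSCs, above 0 only without LT-HSC KO 4 (25.2, 27.8 and 31.4%). In MPPs it gave 2 to 4 calls higher (0.84 to 1.33%) and 0 to 4 lower in KO (0.507 to 2.06%), the fewest higher without MPP KO 1 and the 0 lower without MPP WT 2. Genotype presence could be tested in no region once an LT-HSC KO library was left out, and stayed at 0 calls without any other library. A group left with 1 library was assumed to vary like the others. Left-out fits kept the direction of all 21 named rank calls, and 14 of the 21 fell short of the threshold by fold enrichment. The cause was not tested.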
